A study of Mus musculus with 10 samples.

Results

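The muscle atrophy ligases and the FoxO factors were followed here as 7 genes, chosen by name: the MuRF genes *Trim63*, *Trim55* and *Trim54*, the F-box gene *Fbxo32*, and the forkhead genes *Foxo1*, *Foxo3* and *Foxo4*. All 7 were found among the 57185 genes with counts, and all 7 passed the filter on low counts that left 13454 genes. Left ventricle RNA, taken towards the apex, was from 5 MLPKO and 5 cRADΔ/Δ-MLPKO male mice, and was enriched for polyadenylated transcripts and sequenced as 1 library per mouse. Both groups lack muscle LIM protein in all cells and carry floxed *Rrad*, the gene for RAD, and both received tamoxifen once at 10 weeks of age, at 100 mg/kg. The cRADΔ/Δ-MLPKO mice (MLPKO-cRADKO in the labels) also carry the MYH6-MerCreMer transgene, a tamoxifen-induced recombinase driven by a cardiomyocyte promoter, so that RAD was deleted in cardiomyocytes only. MLPKO mice carried no recombinase, so the transgene and the RAD deletion cannot be told apart, and no mouse with intact muscle LIM protein was in the comparison. Hearts were taken 1 month after tamoxifen by the paper. The labels give 16 weeks of age, which is later than 1 month after 10 weeks, and the sources do not explain this.

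Striated muscle breaks down its contractile proteins largely through the ubiquitin-proteasome system, in which an E3 ligase picks the protein that will be tagged. *Trim63* and *Fbxo32* (MuRF1 and atrogin in the muscle literature) are the best known of these ligases and rise together in many forms of skeletal muscle wasting. Their transcription is driven by FoxO factors, which insulin and IGF1 signalling keeps out of the nucleus through phosphorylation by AKT. In the heart the MuRF proteins also sit at the M-band and Z-disc of the sarcomere, where they bind titin and mark thick filament proteins, while atrogin acts on calcineurin and other signalling proteins. FoxO activity is set mainly by phosphorylation, which transcript counts do not measure.

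The promoters of *Trim63* and *Trim54* are shown, since *Trim54* was the ligase gene that differed between the genotypes and *Trim63* its close relative that did not pass the test. They are from RefSeq on GRCm38.p6, an earlier build than the GRCm39 of the counts, and run from 250 bases before to 50 bases after the annotated start. Capitals mark matches, on either strand, to 4 motifs: the FoxO motif GTAAACA, the E-box CAGCTG of myogenic factors, the M-CAT motif CATTCC of TEAD factors, and the TATA box TATAAA.

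Trim63 (chr4:134314870-134315169, plus strand): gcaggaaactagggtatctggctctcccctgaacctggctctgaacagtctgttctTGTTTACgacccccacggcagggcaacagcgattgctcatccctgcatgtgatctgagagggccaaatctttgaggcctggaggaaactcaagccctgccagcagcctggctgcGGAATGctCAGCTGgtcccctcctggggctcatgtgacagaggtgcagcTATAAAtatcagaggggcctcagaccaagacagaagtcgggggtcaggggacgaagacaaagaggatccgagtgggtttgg
Trim54 (chr5:31116362-31116661, plus strand): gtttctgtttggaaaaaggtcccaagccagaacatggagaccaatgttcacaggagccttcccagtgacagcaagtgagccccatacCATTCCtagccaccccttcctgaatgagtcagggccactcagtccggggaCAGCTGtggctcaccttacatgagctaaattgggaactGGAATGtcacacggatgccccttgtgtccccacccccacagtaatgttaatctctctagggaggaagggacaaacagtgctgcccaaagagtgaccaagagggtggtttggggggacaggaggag

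The *Trim63* window held 1 match to each of the 4 motifs, with the FoxO motif on the minus strand 194 bases before the start and the TATA box 31 bases before it. The *Trim54* window held 1 E-box and 2 M-CAT matches and no exact match to GTAAACA or TATAAA. Only these exact letters were searched, so other forms of the motifs are not marked in either window. Of the other members, 2 were in the RefSeq table: *Foxo3* had 2 M-CAT matches and *Foxo1* had no match to any of the 4. Among the 32851 promoter windows of the same length in the table, 3.65% held the FoxO motif, 16.3% the E-box, 14.7% the M-CAT motif and 13.6% the TATA box. *Trim55*, *Fbxo32* and *Foxo4* were not in the table.

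Libraries held 33457406 to 49965101 counts, and none of the 10 was left out. MLPKO mouse 2 lay farthest from the rest of its group, at a root mean square distance of 0.537 in log2 CPM against 0.279 to 0.428 in the other 9 mice. *Rrad* itself had 140 to 282 CPM (counts scaled to the TMM-adjusted library size) in MLPKO and 135 to 202 CPM in cRADΔ/Δ-MLPKO, and the genotypes overlapped (log2 fold change −0.38, standard error 0.20, edgeR adjusted p = 0.29). *Csrp3*, the gene for muscle LIM protein, had 1009 to 3261 CPM in MLPKO and 691 to 1177 CPM in cRADΔ/Δ-MLPKO. These gene-level counts do not show either deletion, why was not tested, and the genotypes are those of the labels. At the protein level, the paper reported loss of RAD in cRADΔ/Δ-MLPKO hearts after tamoxifen, by western blot. Whether the blotted hearts included those sequenced is not given in the sources used here. Of the 10 skeletal muscle markers, the fast myosin genes *Myh1*, *Myh2* and *Myh4* had at most 4 counts in any mouse, and 6 others had at most 54. *Ckm*, the muscle creatine kinase gene that heart muscle also expresses, had 393 to 675 CPM. The cardiomyocyte markers summed to 53197 CPM or more in each mouse.

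Between the genotypes, 2 of the 7 members passed the test, both close to its threshold. *Trim54* was lower and *Foxo1* higher in cRADΔ/Δ-MLPKO, without overlap between the mice. *Trim54* fell by 16.1% and *Foxo1* rose by 21.6%. In a fit with the mouse number as a block neither passed (edgeR adjusted p = 0.0623 for *Trim54* and 0.0724 for *Foxo1*). The 2 classical atrophy genes, *Trim63* and *Fbxo32*, overlapped between the genotypes and did not pass the test, and neither did *Trim55*, *Foxo3* or *Foxo4*. Genes were tested with the quasi-likelihood F test in edgeR, and p-values were adjusted by Benjamini-Hochberg over all 13454 genes. By this test 2.74% of all genes passed at an adjusted p under 0.05, 0.944% higher and 1.8% lower in cRADΔ/Δ-MLPKO. In 6.62% of all genes the genotypes did not overlap.

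**Figure D1:**
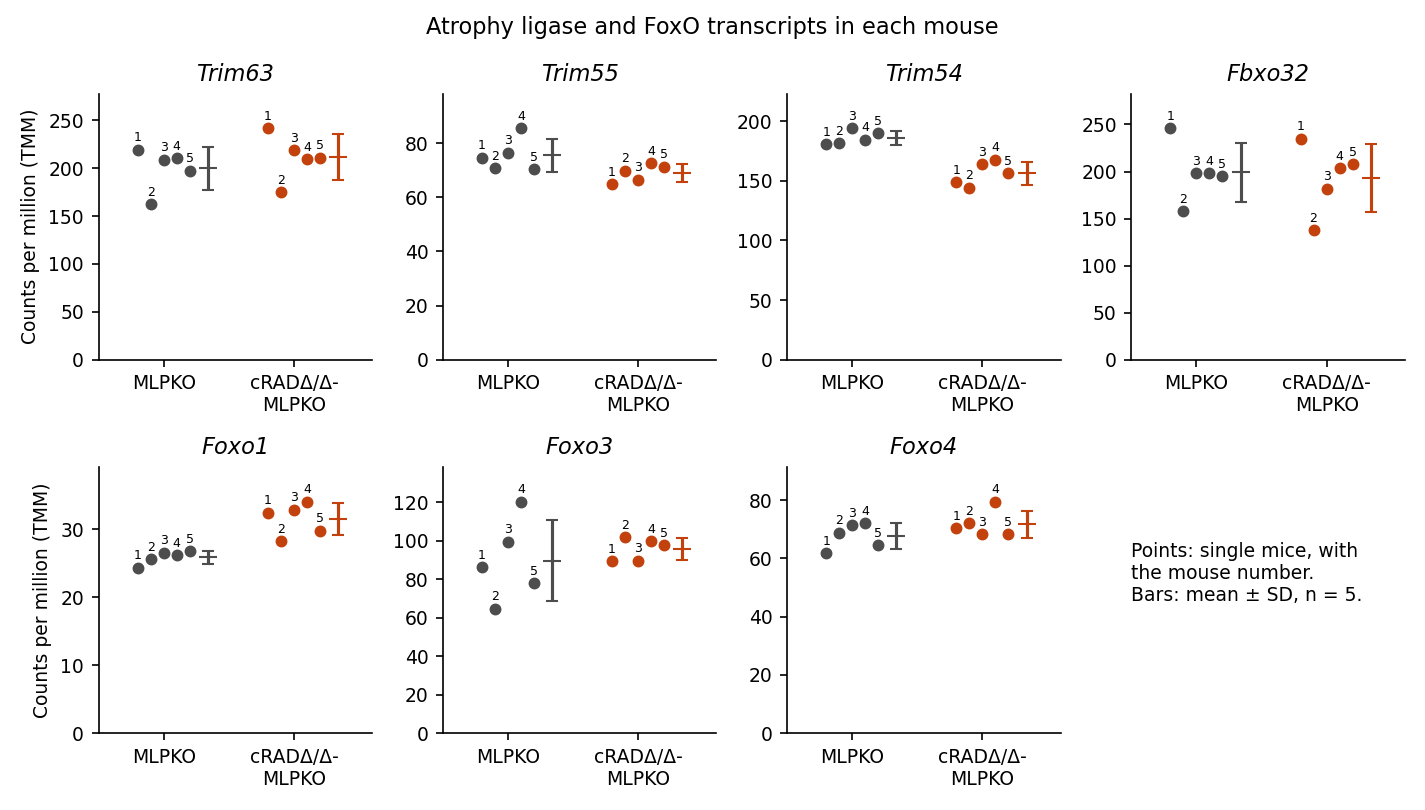
CPM (TMM scaled, linear axis from 0) of the 7 genes in each mouse, by genotype, with points numbered by mouse and bars showing the mean ± SD (n = 5). *Trim54* sits between 181 and 194 in MLPKO and between 144 and 168 in cRADΔ/Δ-MLPKO, *Foxo1* between 24.3 and 26.8 and between 28.3 and 34.1, and the other 5 genes overlap.

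*Trim54* (ENSMUSG00000062077, GRCm39 chromosome 5, 31273911 to 31298846, plus strand) encodes MuRF3, a ligase that binds microtubules and the sarcomere. In MLPKO mice 1 to 5 it had 181, 182, 194, 184 and 190 CPM. In cRADΔ/Δ-MLPKO mice 1 to 5 it had 149, 144, 164, 168 and 156 CPM. All 5 cRADΔ/Δ-MLPKO mice were thus below the lowest MLPKO mouse, and the spread within MLPKO was small. The means were 186 ± 5.75 CPM (SD, n = 5) and 156 ± 9.91 CPM (SD, n = 5), a log2 fold change of −0.25 ± 0.06 (SE, with edgeR adjusted p = 0.0389) and a fold of 0.839 with a 95% interval of 0.771 to 0.914. DESeq2, the tool of the study's methods, called 9.65% of all genes and the same 2 of the 7 members. It put *Trim54* at −0.26 on the log2 scale (DESeq2 adjusted p = 0.000559). The adjusted p of edgeR stayed under 0.05 in 2 of the 10 fits that left out 1 mouse (without MLPKO mouse 2 and without MLPKO mouse 4). It was between 0.0579 and 0.0982 in the other 8, while the log2 fold change stayed between −0.27 and −0.22 in all 10. Without the filter on low counts the call was also lost (edgeR adjusted p = 0.0556).

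Exons of *Trim54* share 869 bases with *Mpv17*, 635 bases with *Ucn* and 540 bases with the predicted gene *Gm15469*, all on the opposite strand. *Gm15469* had 98 counts in all over the 10 mice. Whether strand was used in counting is not given in the sources used here. *Mpv17*, a gene for a mitochondrial membrane protein, had 26.5 ± 2.68 CPM (SD, n = 5) in MLPKO and 31.9 ± 2.17 CPM (SD, n = 5) in cRADΔ/Δ-MLPKO, so its fitted difference was opposite in sign to that of *Trim54* (log2 fold change 0.27, edgeR adjusted p = 0.0797). *Ucn*, the urocortin gene, had a fitted difference of the same sign as *Trim54*, at 1.58 ± 0.0938 CPM (SD, n = 5) in MLPKO and 1.22 ± 0.0986 CPM (SD, n = 5) in cRADΔ/Δ-MLPKO, without overlap but short of the threshold (log2 fold change −0.38, edgeR adjusted p = 0.177). It had at most 78 counts in any mouse. How many counts the overlapping bases gave to each gene was not tested.

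*Trim63* (ENSMUSG00000028834, chromosome 4, 134042393 to 134056948, plus strand), the MuRF1 gene, had 220, 162, 209, 211 and 198 CPM in MLPKO mice 1 to 5. It had 242, 175, 219, 210 and 211 CPM in cRADΔ/Δ-MLPKO mice 1 to 5. Mouse 2 was the lowest and mouse 1 the highest of each genotype, and 1 cRADΔ/Δ-MLPKO mouse was above all MLPKO mice. The log2 fold change was 0.08 ± 0.10 (standard error, n = 5 per group) at an adjusted p of 0.685 by edgeR, and its 95% interval, given as a fold, ran from 0.913 to 1.22.

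*Fbxo32* (ENSMUSG00000022358, chromosome 15, 58039275 to 58078741, minus strand), the F-box subunit that brings substrates to an SCF ligase, had 246, 158, 198, 198 and 195 CPM in MLPKO mice 1 to 5. It had 235, 138, 182, 204 and 208 CPM in cRADΔ/Δ-MLPKO mice 1 to 5. As for *Trim63*, mouse 1 was the highest and mouse 2 the lowest in each genotype. The log2 fold change was −0.04 ± 0.14 (standard error, n = 5 per group) at an adjusted p of 0.896 by edgeR, and its 95% interval as a fold ran from 0.785 to 1.2. The fitted sign turned positive without MLPKO mouse 1 (0.04) and without cRADΔ/Δ-MLPKO mouse 2 (0.06).

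*Trim55* (ENSMUSG00000060913, chromosome 3, 19698571 to 19746771, plus strand), the MuRF2 gene, had 70.3 to 85.5 CPM in MLPKO, with mouse 4 at the top. It had 64.9 to 72.5 CPM in cRADΔ/Δ-MLPKO, where 3 mice were below all MLPKO mice. The means were 75.5 ± 6.13 CPM (SD, n = 5) and 69 ± 3.22 CPM (SD, n = 5), a log2 fold change of −0.13 ± 0.06 (SE, with edgeR adjusted p = 0.264), with a 95% interval as a fold from 0.829 to 1.01.

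Among the FoxO factors, *Foxo1* (ENSMUSG00000044167, chromosome 3, 52175757 to 52260642, plus strand) was the member called higher. This factor is prominent in endothelium and in insulin signalling. It had 24.3, 25.6, 26.6, 26.2 and 26.8 CPM in MLPKO mice 1 to 5. In cRADΔ/Δ-MLPKO mice 1 to 5 it had 32.4, 28.3, 32.9, 34.1 and 29.8 CPM. All 5 cRADΔ/Δ-MLPKO mice were above the highest MLPKO mouse. The means were 25.9 ± 0.974 CPM (SD, n = 5) and 31.5 ± 2.38 CPM (SD, n = 5), a log2 fold change of 0.28 ± 0.06 (SE, with edgeR adjusted p = 0.0389) and a fold of 1.22 with a 95% interval of 1.11 to 1.34. DESeq2 put it at 0.28 on the log2 scale (DESeq2 adjusted p = 0.0039). With 1 mouse left out the log2 fold change lay between 0.26 and 0.32, and the adjusted p of edgeR stayed under 0.05 without MLPKO mouse 4 and without cRADΔ/Δ-MLPKO mouse 2. In the other 8 fits it was between 0.0554 and 0.0905.

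*Foxo3* (ENSMUSG00000048756, chromosome 10, 42057837 to 42154007, minus strand), the FoxO factor most studied in muscle wasting, was the member that varied most within MLPKO. Its values there were 86.1, 64.7, 99.5, 120 and 77.8 CPM, a coefficient of variation of 23.7%, against 5.99% over the 89.4 to 102 CPM of the cRADΔ/Δ-MLPKO mice. The cRADΔ/Δ-MLPKO values lay inside the MLPKO range, and the difference between these spreads was not tested. The log2 fold change of 0.09 ± 0.14 (SE, with edgeR adjusted p = 0.743, n = 5 per group) became −0.0034 without MLPKO mouse 2. *Foxo4* (ENSMUSG00000042903, chromosome X, 100298073 to 100304479, plus strand) had 61.8 to 72.1 CPM in MLPKO and 68.3 to 79.4 CPM in cRADΔ/Δ-MLPKO, with 1 mouse above the MLPKO range. Its log2 fold change was 0.08 ± 0.06 (standard error, n = 5 per group) at an adjusted p of 0.489 by edgeR. *Foxo6*, the remaining FoxO gene and no member, had 2.91 ± 1.69 CPM (SD, n = 5) in MLPKO and 3.84 ± 0.761 CPM (SD, n = 5) in cRADΔ/Δ-MLPKO.

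**Figure D2:**
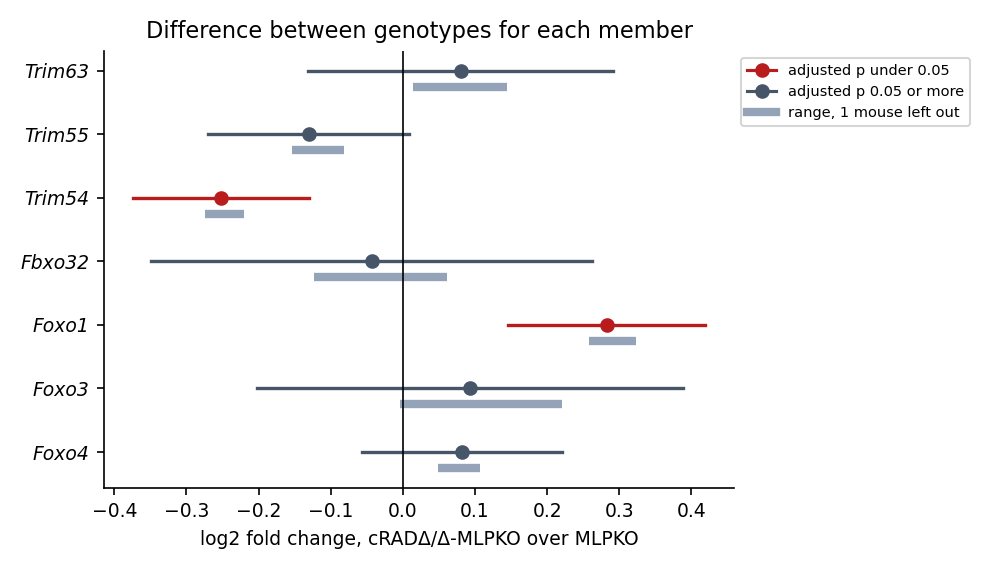
Log2 fold change of each member (points, cRADΔ/Δ-MLPKO over MLPKO) with its 95% interval (thin lines) and the range over the 10 fits that left out 1 mouse (grey bars). *Trim54* at −0.25 and *Foxo1* at 0.28 are the members whose intervals exclude 0.

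Summed markers of some cell types also differed between the genotypes. The count is per tissue, so fewer cells of a type and less RNA per cell cannot be told apart. The 8 cardiomyocyte markers summed to 67137 to 78133 CPM in MLPKO and to 53197 to 64442 CPM in cRADΔ/Δ-MLPKO, without overlap, with a median log2 fold change of −0.21. Of these 8, *Tnnt2* was called lower (log2 fold change −0.57, edgeR adjusted p = 0.0185). *Myh6* by itself had 25409 to 40223 CPM of these sums, and only *Tnni3* was fitted higher (0.13, edgeR adjusted p = 0.421). The 7 endothelial markers summed to 913 to 1097 CPM in MLPKO and to 1142 to 1280 CPM in cRADΔ/Δ-MLPKO, also without overlap, with a median log2 fold change of 0.25. Of these 7, the angiopoietin receptor gene *Tek* was called higher (log2 fold change 0.32, edgeR adjusted p = 0.0196), and only *Vwf* was fitted lower (−0.13, edgeR adjusted p = 0.787). The smooth muscle and pericyte markers summed to 464 to 613 CPM in MLPKO and 617 to 838 CPM in cRADΔ/Δ-MLPKO, with *Acta2* and *Rgs5* called higher and no other of the 5 tested called. The median log2 fold change of those 5 was 0.01, with *Cnn1* at −2.17 (edgeR adjusted p = 0.103). The fibroblast and macrophage sums overlapped between the genotypes, at 1335 to 1917 against 1156 to 2039 CPM and at 158 to 240 against 197 to 438 CPM, with *Dpt* the 1 fibroblast marker called (higher) and no macrophage marker called. All 8 macrophage markers were fitted higher, with log2 fold changes from 0.44 to 0.88, a median of 0.54 and edgeR adjusted p-values from 0.0532 to 0.131. Of the 6 stressed cardiomyocyte markers, *Myh7*, *Acta1*, *Ankrd1* and *Xirp2* were called lower, and the sum ran from 12519 to 48610 CPM in MLPKO, with mouse 2 at the top, and from 6181 to 14861 CPM in cRADΔ/Δ-MLPKO. The part of these markers in the differences of *Trim54* and *Foxo1* was not tested. Mitochondrially encoded genes took 15.8% to 21.2% of the counts in MLPKO and 21.4% to 22.6% in cRADΔ/Δ-MLPKO, and with these genes left out the log2 fold changes were −0.25 for *Trim54* and 0.28 for *Foxo1*, both still called.

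Between genes, levels were compared per kilobase of annotated exon (RPKM). *Trim63* was the highest member at 62.9 RPKM over the 10 mice, followed by *Trim54* at 30.1, *Fbxo32* at 21.4, *Foxo4* at 19.7, *Foxo3* at 10.04, *Trim55* at 6.99 and *Foxo1* at 3.1 RPKM. Each neighbour in this order was the higher of its pair in all 10 mice, apart from *Fbxo32* and *Foxo4*, where 7 of 10 mice had more *Fbxo32* and the levels did not differ beyond their spread. The ranges of *Trim54* and *Fbxo32* and those of *Foxo3* and *Trim55* overlapped over all mice. *Trim63* stood at the 97.5th percentile and *Foxo1* at the 57.6th percentile of the 13418 genes tested with an annotated length. By this length *Foxo4* made up 60.7% ± 3.81 (SD, n = 5) of the FoxO sum in MLPKO and 59.5% ± 0.969 (SD, n = 5) in cRADΔ/Δ-MLPKO. *Foxo3* was at 30.4% and 30.5% and *Foxo1* at 8.89% and 10.0%. The length joins the exons of all annotated transcripts (9228 bases for *Foxo3*, 3546 for *Foxo4*), and which were expressed was not tested. Order and shares depend on it. In mean CPM, *Foxo3* (89.6 in MLPKO, 95.6 in cRADΔ/Δ-MLPKO) was above *Foxo4* (67.7 and 71.7).

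**Figure D3:**
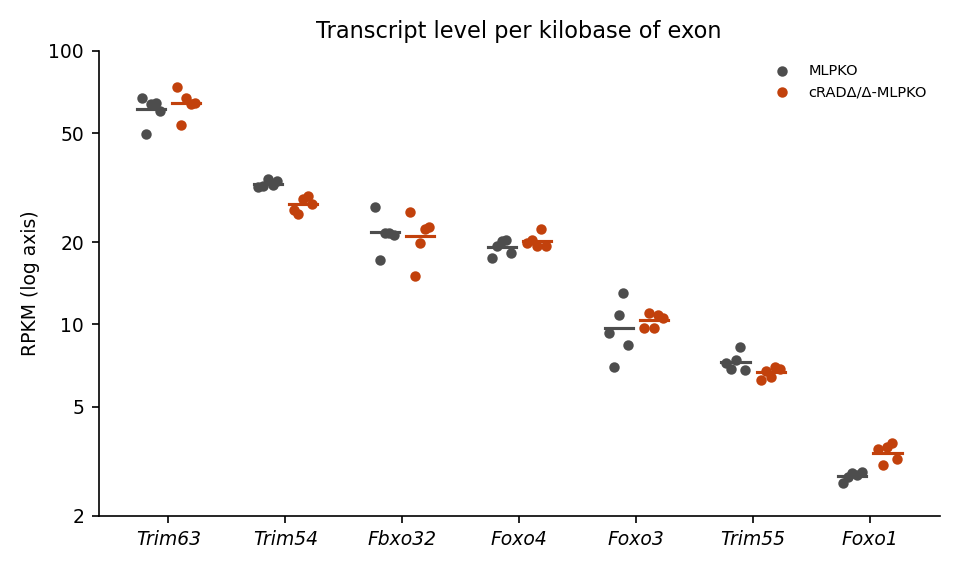
Level of each member per kilobase of exon (RPKM, log axis) in each mouse, with short lines at the genotype means, ordered from the highest gene to the lowest. *Trim63*, at 62.9 RPKM over all mice, is 2.09 times the level of the next gene, *Trim54*, and *Foxo1* is the lowest at 3.1 RPKM.

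Among the MuRF transcripts, the share of *Trim54* separated the genotypes while the sum overlapped. The 3 genes summed to 101 ± 7.43 RPKM (SD, n = 5) in MLPKO and 98.8 ± 7.84 RPKM (SD, n = 5) in cRADΔ/Δ-MLPKO. *Trim54* made up 29.9% to 36.1% of this sum in MLPKO and 24.6% to 29.6% in cRADΔ/Δ-MLPKO, without overlap. The share of *Trim63* was 56.2% to 63.3% in MLPKO and 62.5% to 69.5% in cRADΔ/Δ-MLPKO, and that of *Trim55* was 6.76% to 7.86% and 5.9% to 7.87%, both overlapping. These shares restate the levels above, depend on the same exon lengths and were not tested.

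Within a genotype, some members rose and fell together from mouse to mouse. Log2 CPM was centred on the mean of each genotype, and all 21 pairs of members were compared with two-sided exact permutation tests within genotype (14400 arrangements), with p-values adjusted over the 21 pairs. *Trim63* and *Fbxo32* had a Pearson r of 0.90 (exact permutation p = 0.00181, adjusted p = 0.0197, 10 mice) and a Spearman rho of 0.75 (exact permutation p = 0.0208, adjusted p = 0.218). The r was 0.90 within MLPKO and 0.92 within cRADΔ/Δ-MLPKO, and was 0.67 without the mice 2 of both genotypes, which were the farthest from the median. In each genotype mouse 1 was the highest and mouse 2 the lowest for both genes. The permutation takes the 10 mice as independent, and whether mice of the same number shared a step is not given in the sources. *Trim55* and *Foxo3* had an r of 0.88 (exact permutation p = 0.00188, adjusted p = 0.0197, 10 mice) and a rho of 0.89 (exact permutation p = 0.00431, adjusted p = 0.0904), with an r of 0.76 without MLPKO mice 4 and 5. No pair passed by the adjusted rank test, and 2 of 21 passed by Pearson's r.

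*Trim54* and *Foxo1*, which differed between the genotypes in opposite directions, had a positive r of 0.77 within genotype that did not pass the adjustment (exact permutation p = 0.0466, adjusted p = 0.326, 10 mice), with a rho of 0.76 (exact permutation p = 0.0476, adjusted p = 0.333) and an r of 0.46 without cRADΔ/Δ-MLPKO mice 2 and 4. None of the 3 FoxO transcripts passed with either of the classical atrophy genes. For *Fbxo32* the r was 0.32 with *Foxo1*, 0.16 with *Foxo3* and −0.25 with *Foxo4*, and for *Trim63* it was 0.40, 0.38 and −0.19, with adjusted exact permutation p = 0.876 for each of these 6 pairs (10 mice). In 4 of these 6 pairs the sign of r differed between the genotypes, so the pooled r describes neither. Within MLPKO and within cRADΔ/Δ-MLPKO, r was 0.76 and −0.83 for *Trim63* and *Foxo3*, and −0.12 and 0.70 for *Trim63* and *Foxo1*. It was −0.48 and 0.63 for *Fbxo32* and *Foxo1*, and 0.45 and −0.54 for *Fbxo32* and *Foxo3*. These differences were not tested.

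**Figure D4:**
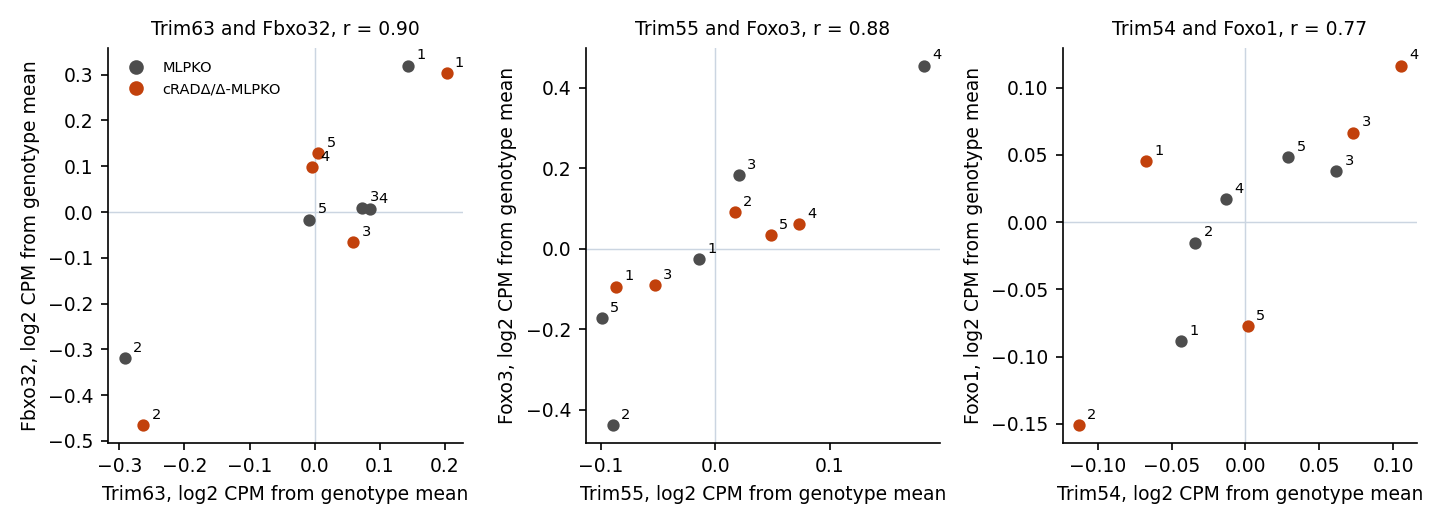
Log2 CPM of 3 pairs of members in each mouse, as the difference from the genotype mean, with points numbered by mouse and coloured by genotype. The r is 0.90 for *Trim63* and *Fbxo32*, where the mice 2 of both genotypes lie lowest, 0.88 for *Trim55* and *Foxo3*, and 0.77 for *Trim54* and *Foxo1*.

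The same centred values were used to find, among the 13454 genes, those most like each member over the 10 mice, as a description that shares libraries and scaling. For *Trim63* they were *Tprkb* (r = 0.96), *Limd1* (0.94) and *Tbxas1* (0.94), and *Fbxo32* ranked 11 in that order. For *Fbxo32* they were *Lipt2* (r = 0.93), *Tprkb* (0.91) and *Arhgef37* (0.91), followed by *Trim63* at rank 4. For *Trim54* they were *Npepl1* (r = 0.94), *Scp2* (0.93) and *Ubb* (0.91), the last of which encodes polyubiquitin. For *Trim55* they were *Pde4c* (r = 0.99), *N4bp2* (0.96) and *Nr1d2* (0.96), a circadian repressor gene, and for *Foxo1* *Ramac* (0.95), *Decr2* (0.92) and *Tmem102* (0.92). For *Foxo3* they were *mt-Co1* (r = 0.99), a mitochondrially encoded subunit of cytochrome oxidase, *Mfap3l* (0.98) and *Abcc8* (0.98), and for *Foxo4* *Recql4* (0.92), *Mettl4* (0.91) and *Patj* (0.90).

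Around the members, 134 genes in 6 lists were examined, of which 132 were tested. Of these, 3 were called, all lower in cRADΔ/Δ-MLPKO, and DESeq2 called 16, of which 4 were higher and 12 lower. Over all genes tested, edgeR called 2.74% and DESeq2 9.65%, and 21.5% had an unadjusted edgeR p under 0.05, so the counts in the lists are read against these shares. The median log2 fold change over all genes tested was 0.01.

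Among 25 other muscle ubiquitin ligases and parts of the SCF complex, edgeR called none, with 1 higher and 4 lower at an unadjusted p under 0.05 (21.5% over all genes), while DESeq2 called 1 higher and 3 lower and limma-voom none. Without MLPKO mouse 4, edgeR called 2 lower. The median log2 fold change was −0.07. The genes with the smallest p were *Ube2d2a*, a ubiquitin-conjugating enzyme (log2 fold change −0.19, edgeR adjusted p = 0.0608), *Ubr4*, an N-recognin ligase (−0.20, edgeR adjusted p = 0.0612), and *Fbxo40*, a muscle F-box gene (−0.56, edgeR adjusted p = 0.066). None of the 3 overlapped between the genotypes, but they were picked for their small p, and 6.62% of all genes did not overlap. *Fbxo40* had 566 ± 152 CPM (SD, n = 5) in MLPKO and 385 ± 18.1 CPM (SD, n = 5) in cRADΔ/Δ-MLPKO.

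Among 19 substrates and partners of the ligases, 2 were called lower and none higher, with a median log2 fold change of −0.12. At an unadjusted p under 0.05 (21.5% over all genes), 1 was higher and 8 were lower, and DESeq2 called 4 lower. *Myh7*, the slow myosin heavy chain and a thick filament substrate of the MuRF ligases, had 770 to 1342 CPM in MLPKO and 340 to 499 CPM in cRADΔ/Δ-MLPKO (log2 fold change −1.23, standard error 0.17, edgeR adjusted p = 0.0104). Its call was kept whichever of the 10 mice was left out. *Sqstm1*, the ubiquitin-binding autophagy receptor p62 that meets MuRF2 at titin, had 467 ± 32.5 CPM (SD, n = 5) in MLPKO and 388 ± 14.7 CPM (SD, n = 5) in cRADΔ/Δ-MLPKO (log2 fold change −0.27, edgeR adjusted p = 0.0428), without overlap, and was called in 2 of the 10 fits. *Myh6* was next (log2 fold change −0.29, edgeR adjusted p = 0.104) and overlapped.

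Upstream of FoxO, 0 of 28 genes of insulin, IGF1, PI3K and AKT signalling and other FoxO modifiers were called by edgeR, with 5 higher and 2 lower at an unadjusted p under 0.05 (21.5% over all genes), while DESeq2 called 1 lower and limma-voom none. Without MLPKO mouse 2, and likewise without MLPKO mouse 4, edgeR called 1 higher. The median log2 fold change was 0.03. Among the smallest p were those of *Mtor*, the kinase gene of the growth pathway (log2 fold change −0.21, edgeR adjusted p = 0.0666), and *Akt1*, a kinase gene that acts on FoxO (0.28, edgeR adjusted p = 0.175), and both overlapped between the genotypes.

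Of 25 textbook FoxO target genes, 1 was called lower and none higher, with a median log2 fold change of 0.07. It was *Cat*, the gene for catalase, with 263 to 299 CPM in MLPKO and 218 to 251 CPM in cRADΔ/Δ-MLPKO (log2 fold change −0.30, standard error 0.06, edgeR adjusted p = 0.0266), called in 4 of the 10 fits that left out 1 mouse. Next were the cyclin gene *Ccng2* (log2 fold change 0.28, edgeR adjusted p = 0.0834), which did not overlap (6.62% over all genes), and the pro-death gene *Bcl2l11* (0.53, edgeR adjusted p = 0.108), which did. DESeq2 called both of these higher, with adjusted p of 0.0396 and 0.0406. At an unadjusted p under 0.05, which 21.5% of all genes passed, 6 targets were higher and 1 lower.

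Of 29 autophagy and lysosome genes, *Sqstm1* was the 1 called by edgeR, and the median log2 fold change was −0.05. The call was kept in 2 of the 10 fits that left out 1 mouse. At an unadjusted p under 0.05 (21.5% over all genes), 2 were higher and 5 lower, and DESeq2 called 1 higher and 3 lower. *Atg12* (log2 fold change −0.22, edgeR adjusted p = 0.0678) and *Gabarapl2* (−0.17, edgeR adjusted p = 0.0728), both parts of the conjugation system that builds the autophagosome, followed and did not overlap between the genotypes (6.62% over all genes). Of 18 other regulators of ligase transcription, *Myog* and *Dach2* did not pass the count filter and none of the 16 tested was called by edgeR, with 1 higher and 3 lower at an unadjusted p under 0.05 (21.5% over all genes), while DESeq2 called 1 lower and limma-voom none. The smallest p belonged to *Mef2c* (log2 fold change −0.28, edgeR adjusted p = 0.0951), the myostatin gene *Mstn*, at under 1 CPM in every mouse (−1.40, edgeR adjusted p = 0.139), and *Klf15*, a glucocorticoid-induced activator (0.21, edgeR adjusted p = 0.226). All 3 overlapped.

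**Figure D5:**
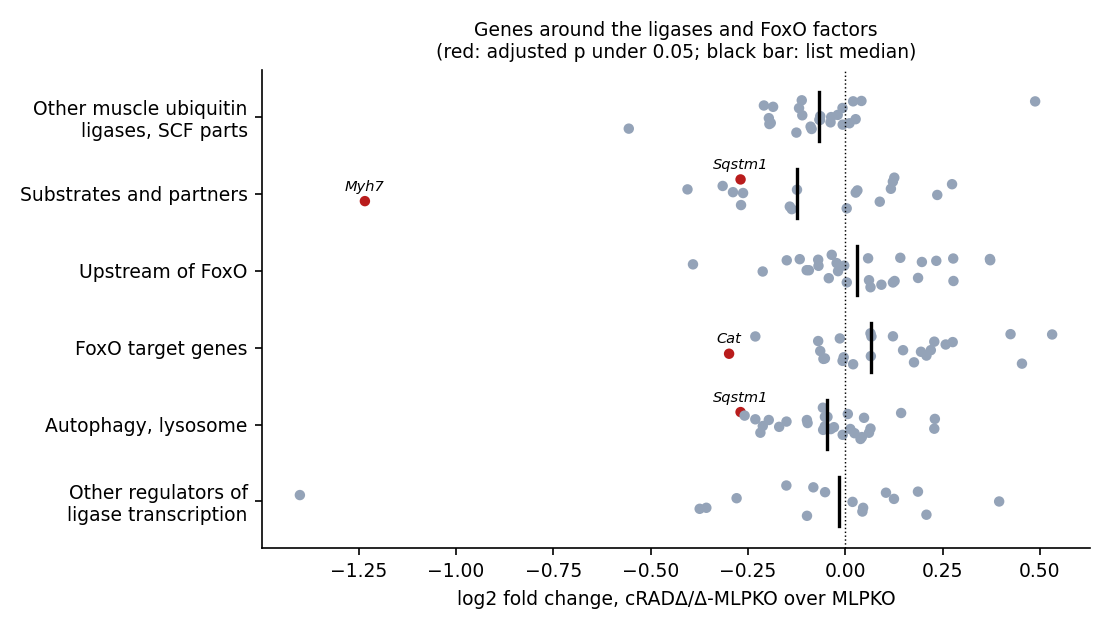
Log2 fold change (cRADΔ/Δ-MLPKO over MLPKO) of each tested gene in the 6 lists, with list medians as black bars and genes at an edgeR adjusted p under 0.05 in red. *Myh7* at −1.23, *Sqstm1* at −0.27 (in 2 lists) and *Cat* at −0.30 are called, and the list medians lie between −0.12 and 0.07.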

How the data were processed

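RNA from the left ventricle of 10 mice was measured as 1 library each, 5 MLPKO and 5 cRADΔ/Δ-MLPKO, grouped by the sample titles. The authors aligned reads to GRCm39 with STAR after FastQC, summed them by gene in featureCounts, and deposited raw counts without normalization. Versions, annotation release and the handling of strand, read pairs and shared reads are not given in the sources used here. From 1 to 20 counts, 73.7% to 80.3% of values were even per library, so a count may not be 1 fragment. The 3491 blank rows of 60676 were left out.

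Genes were named and measured for exon length with GENCODE M39 (56629 of 57185 matched). A gene was tested where 6 or more of the 10 libraries held over 10 counts, and predicted genes (Gm, Rik) were left out, after the study's methods. TMM scaling and the quasi-likelihood test of edgeR 4.0.16 (R 4.3.3) were used, with a prior count of 2 for log2 CPM and the standard error taken from the F statistic. DESeq2 1.42.0 (the study's tool) and limma-voom 3.58.1 were alternatives, as were RLE size factors, no count filter, the mouse number as a block and leaving out each mouse. A fit without mitochondrially encoded genes, and list counts by DESeq2, by limma-voom and with 1 mouse left out, were added after seeing the data. The fits were tested on simulated data. Correlations and motifs were computed with pandas 2.3.3, scipy 1.17.1 and numpy 2.4.6 (Python 3.11.15), and figures with matplotlib 3.10.9.

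Named genes are the members, the called genes of each list or its 3 genes with the smallest p, and the 3 genes most like each member. One gene that this rule names is not reported here. The members and lists were chosen with earlier results of these data known. *Mpv17*, *Ucn*, *Gm15469* and the called marker genes given here were named after their values were seen. The atrial marker list, in which 1 gene was called lower, is not reported here. Nothing says how the mice were related, so p-values measure the spread between these mice.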

Additional observations from a re-analysis of the deposited data

How the results depend on the processing

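All 7 log2 fold changes kept their sign under DESeq2, limma-voom, RLE size factors, no count filter, the replicate block and without mitochondrially encoded genes, an alternative added after the data had been seen. DESeq2 called 1298 genes against 369 by edgeR, and leaving out 1 mouse gave 47 to 826 genes (47 without MLPKO mouse 5, 826 without MLPKO mouse 4). Of the members, 0 to 2 were called with 1 mouse left out, with log2 fold changes of −0.27 to −0.22 for *Trim54* and 0.26 to 0.32 for *Foxo1*. Without the count filter 1 member was called, and *Trim54* missed the threshold (log2 fold change −0.25, edgeR adjusted p = 0.0556). With the replicate block 281 genes and 0 members were called, and the log2 fold changes were −0.25 for *Trim54* (edgeR adjusted p = 0.0623) and 0.28 for *Foxo1* (edgeR adjusted p = 0.0724). The mouse numbers belong to different animals, and the deviations of same-numbered mice correlated over 0.1 in 1 of 5 pairs (r −0.0443 to 0.152). With the block the standard error went from 0.0969 to 0.0557 for *Trim63* and from 0.1401 to 0.0644 for *Fbxo32*. It went from 0.0559 to 0.0568 for *Trim54* and from 0.0627 to 0.0669 for *Foxo1*. The sources do not say whether mice of the same number shared a step, and this was not tested. With 1 mouse left out *Fbxo32* lay between −0.12 and 0.06 and *Foxo3* between −0.0034 and 0.22. The sign of *Fbxo32* reversed without MLPKO mouse 1 (0.0448) and without cRADΔ/Δ-MLPKO mouse 2 (0.0608), and that of *Foxo3* without MLPKO mouse 2 (−0.0034). The cause of these changes was not tested. With 1 mouse left out, r lay between 0.84 and 0.93 for *Trim63* and *Fbxo32* and between 0.74 and 0.93 for *Trim55* and *Foxo3*. The members had 808 counts or more in every mouse.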

Other observations

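*Foxo3* in MLPKO followed the order of the share of counts from mitochondrially encoded genes. That share was 18.5%, 15.8%, 19.2%, 21.2% and 17.0% in MLPKO mice 1 to 5, and *Foxo3* had 86.1, 64.7, 99.5, 120 and 77.8 CPM in the same mice. Both were lowest in mouse 2 and highest in mouse 4. In cRADΔ/Δ-MLPKO the share was 22.2%, 22.4%, 21.5%, 22.6% and 21.4%, and *Foxo3* had 89.4, 102, 89.6, 99.6 and 97.7 CPM. The order was not kept there, with *Foxo3* lowest in mouse 1 and the share lowest in mouse 5. *mt-Co1*, the gene most like *Foxo3* above, is itself part of this share. The genotypes did not overlap in the mitochondrial share but overlapped in *Foxo3*.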
